A study of Drosophila melanogaster with 6 samples.

Results

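Cells that divide by mitosis condense their chromosomes, attach them to spindle microtubules through kinetochores, hold anaphase back until every kinetochore is attached, and then separate the sister chromatids and cleave. In Drosophila larvae such divisions occur in imaginal discs, in the brain, in blood cells and in the germ line, whereas most larval tissues grow by endocycles, in which DNA is replicated without mitosis. The transcripts described here are those of 49 genes of this machinery, in 9 roles: mitotic kinases and the Greatwall module, the chromosomal passenger complex, the spindle assembly checkpoint, the activators and substrates of the anaphase-promoting complex (APC/C), the centromere and kinetochore, spindle motors, the central spindle, condensin, and the spindle pole with its centrosome. They were found by symbol, and all 49 were among the 17562 rows of the count table. All 49 also passed the filter on low counts, which left 10632 genes for the tests.

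RNA was sequenced from whole wandering larvae of the last instar, in 3 libraries of cdk8K185 homozygotes and 3 libraries of w1118, each made from a pool of 10 larvae. CDK8 is a kinase of the Mediator complex, and the comparison asks which transcripts differ in larvae homozygous for a mutant allele of its gene. Per the study's methods, taken here to describe these larvae, the cdk8K185 allele deletes Cdk8 and also part of the neighbouring gene I-2, was kept over the balancer TM6B Tb and had been outcrossed to w1118. Its homozygotes are described as living to the pupal stage on CDK8 supplied by the mother. Age in hours and the sex of the larvae are not given in the sources used here.

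The cdk8K185 libraries held 9208564 to 11724703 counts and the w1118 libraries 10428250 to 10973759. Cdk8 itself gave 4.73, 6.46 and 7.22 CPM in cdk8K185, against 10.1, 9.53 and 8.83 CPM in w1118, where CPM are counts-per-million of a library's total scaled by its TMM factor. Its transcripts were lower in every cdk8K185 library (log2 -0.63, SE 0.19, edgeR adjusted p = 0.0344), yet reads assigned to Cdk8 remained in all 3, and gene counts do not show which part of the gene they came from. I-2 averaged 5.38 ± 0.212 CPM in cdk8K185 and 31.5 ± 3.83 CPM in w1118 (SD, n = 3 each), a larger difference than that of Cdk8 (log2 -2.55). As the allele removes both, the loss of Cdk8 and that of part of I-2 cannot be told apart for any gene described here. A gene is called here where the Benjamini-Hochberg adjusted p of edgeR's quasi-likelihood test over all 10632 genes was under 0.05, and every log2 fold change sets cdk8K185 over w1118 and has its standard error (SE). Of all genes tested 36.9% were called, made up of 19.9% called higher and 17.0% called lower. Where the libraries were scaled by their totals alone, the log2 fold changes of all genes moved up by a median of 0.216, 32.5% of all genes were called higher and 11.3% lower, and the share of higher genes among those called became 74.2% in place of 53.9%.

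Mitotic transcripts were mostly higher in cdk8K185 larvae, by small amounts. Of the 49 genes, 25 were called higher (51.0%, against 19.9% of all genes), 3 were called lower (6.12%, against 17.0%), and 21 were not called. The 3 called lower were fzr, an activator of the APC/C, Mis12, a kinetochore subunit, and endos, an inhibitor of a mitotic phosphatase. The median log2 fold change of the 49 was 0.39, a fold of 1.31, with quartiles of 0.22 and 0.68, beside a median of 0.02 over all genes tested. The genotypes did not overlap in 35 of the 49 (71.4%), beside 53.6% of all genes. Just 2 of the 49, cid and Ndc80, were called with a change of at least 2-fold, whereas 16.5% of all genes were. With library totals alone 36 were called higher and 2 lower, fzr at -0.30 and Mis12 at -0.68, and the median was 0.61, which again lay 0.37 above that of all genes. In bulk RNA of whole larvae, more cells of a type and more RNA per cell cannot be told apart.

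**Figure D1:**
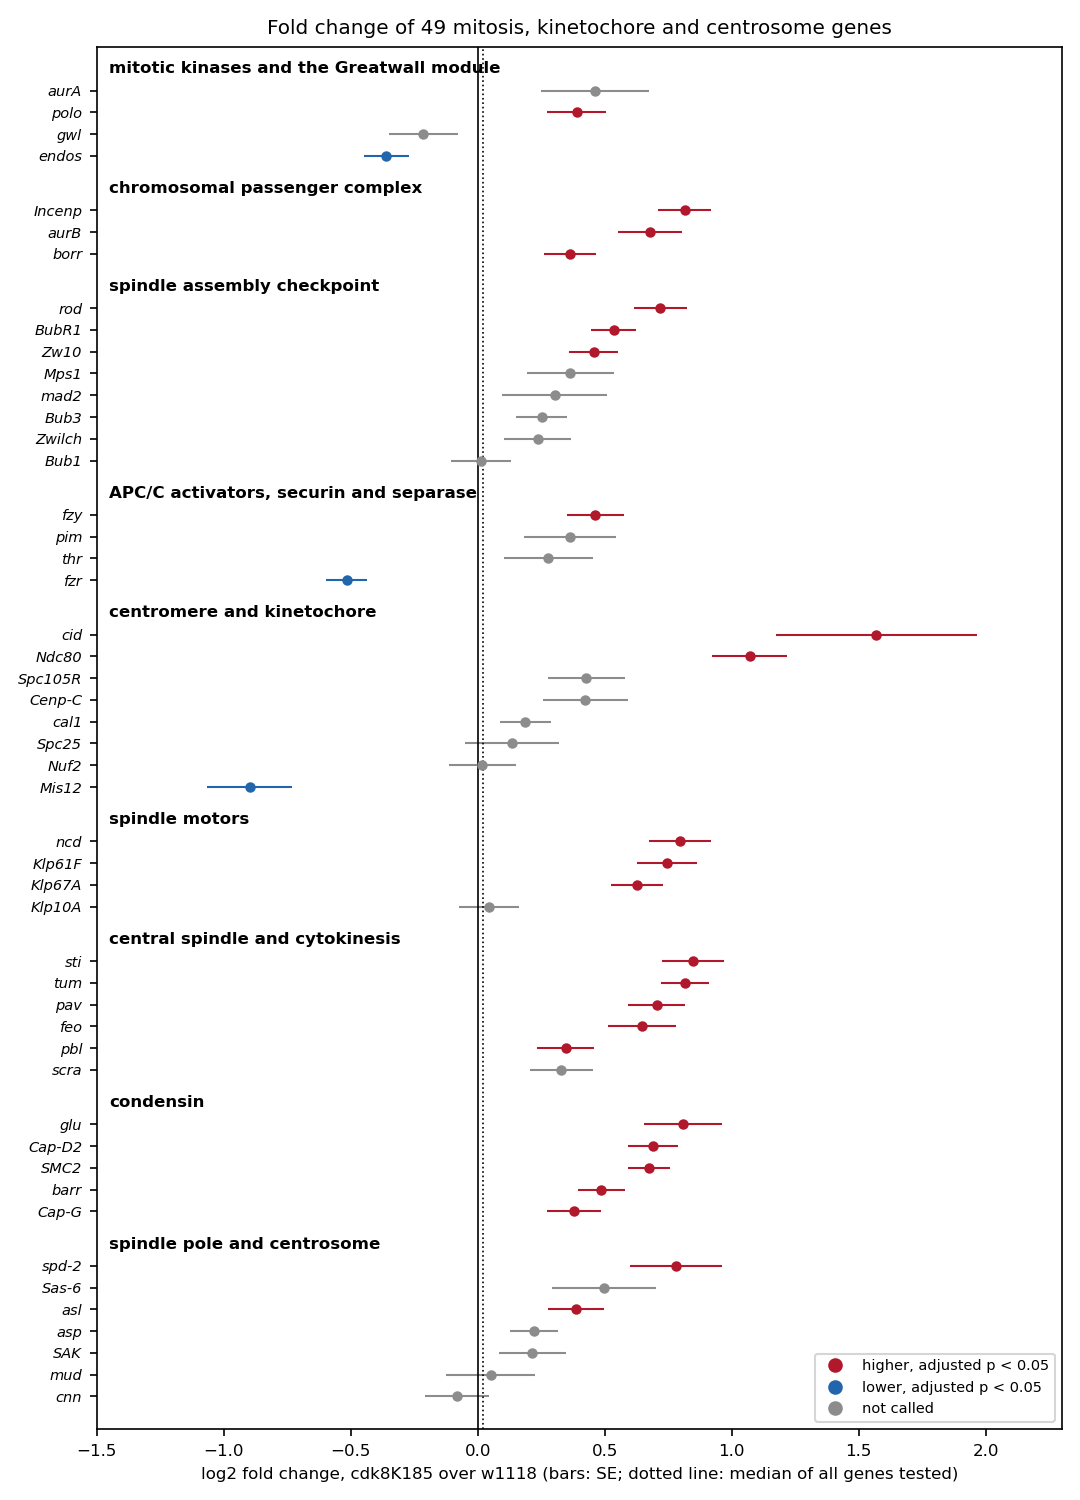
Log2 fold change of each of the 49 genes, cdk8K185 over w1118 (points, with SE as bars), grouped by role, with higher calls in red, lower calls in blue and genes not called in grey; the dotted line marks the median of all genes tested, 0.02. Of the 49 points 44 lie above 0, from 0.01 for Bub1 to 1.57 for cid, and 5 lie below, down to -0.90 for Mis12.

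Mitotic kinases and the Greatwall module gave 1 higher call and 1 lower call among 4 genes, with a median of 0.09. Polo (polo, FBgn0003124), the kinase that acts from mitotic entry to cytokinesis, gave 90.3, 104.9 and 104.5 CPM in cdk8K185, against 80.2, 82.1 and 66.6 CPM in w1118. All 3 cdk8K185 libraries lay above all 3 of w1118, at a log2 fold change of 0.39 (SE 0.12, edgeR adjusted p = 0.0347), but the call was lost without cdk8K185 replicate 2, cdk8K185 replicate 3 or w1118 replicate 3 (edgeR adjusted p 0.0674 to 0.0762). Aurora A (aurA), the kinase of centrosome maturation, gave 10.7, 15.9 and 17.9 CPM in cdk8K185, against 9.17, 12.2 and 10.98 CPM in w1118. Replicate 1 of cdk8K185 fell inside the w1118 range and aurA was not called (0.46, edgeR adjusted p = 0.124), yet without that library its log2 fold change was 0.65 with an edgeR adjusted p of 0.0285.

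Greatwall kinase (gwl) phosphorylates Endosulfine (endos), which then blocks the phosphatase that opposes mitotic entry, and both lay below 0 with TMM scaling. Endos (FBgn0061515, 3L:14029579-14031706, minus strand) gave 86.5, 93.2 and 99.5 CPM in cdk8K185, against 116, 122 and 120 CPM in w1118, with no overlap. Its log2 fold change was -0.36 (SE 0.09, edgeR adjusted p = 0.0183). The call depended on the scaling, at -0.14 with an edgeR adjusted p of 0.364 for library totals alone, and was lost without cdk8K185 replicate 1, cdk8K185 replicate 2 or w1118 replicate 2 (edgeR adjusted p 0.0546 to 0.0656). Over 11.5% of its exon length endos is overlapped by CG6650 on the other strand, which was not called (-0.12). The values of gwl were 11.2, 12.8 and 11.2 CPM in cdk8K185, against 14.2, 14.9 and 11.6 CPM in w1118, with w1118 replicate 3 among the cdk8K185 values, and its log2 fold change of -0.21 was not called and was 0.001 with library totals alone.

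The chromosomal passenger complex corrects faulty attachments and later guides cytokinesis, and its 3 listed genes were all called higher, with a median of 0.68. Its scaffold Incenp (FBgn0260991, 2R:7278467-7281795, plus strand) gave 62.8, 69.7 and 74.4 CPM in cdk8K185, against 38.6, 42.5 and 36.6 CPM in w1118. The lowest cdk8K185 library was well above the highest of w1118, at 0.81 (SE 0.10, edgeR adjusted p = 0.00123). Its kinase Aurora B (aurB) gave 22.6, 23.0 and 23.9 CPM in cdk8K185, against 12.2, 15.7 and 15.6 CPM in w1118, a log2 fold change of 0.68 (SE 0.13, edgeR adjusted p = 0.0058). The aurB values were close to each other in cdk8K185, and w1118 replicate 1 was the lowest of the 6. The targeting subunit borr gave 25.6, 27.8 and 30.1 CPM in cdk8K185, against 20.3, 22.5 and 22.1 CPM in w1118, again with no overlap. Its smaller change, 0.36 (SE 0.10, edgeR adjusted p = 0.0288), lost its call without cdk8K185 replicate 2 or 3 or w1118 replicate 1 or 2 (edgeR adjusted p 0.0589 to 0.0783) and in DESeq2 (adjusted p = 0.087). The fourth subunit of this complex, the Survivin homologue Det, stood outside the 49 genes and was not called (0.18, edgeR adjusted p = 0.393).

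Of the 8 spindle assembly checkpoint genes, 3 were called higher and 5 were not called, with a median of 0.33. The checkpoint holds anaphase back while kinetochores are unattached, and part of it is the Rod-Zw10-Zwilch complex, which brings checkpoint proteins and dynein to the kinetochore. The values of rod (FBgn0003268, 3R:31580951-31588244, plus strand) were 43.5, 44.0 and 43.6 CPM in cdk8K185, against 29.6, 26.4 and 23.6 CPM in w1118. With a coefficient of variation of 0.7%, rod was the least variable of the 49 genes among the cdk8K185 libraries, and its log2 fold change was 0.72 (SE 0.10, edgeR adjusted p = 0.00199). Its partner Zw10 gave 45.6, 45.3 and 49.5 CPM in cdk8K185, against 33.1, 37.5 and 31.8 CPM in w1118, a change of 0.46 (SE 0.10, edgeR adjusted p = 0.0102). Zwilch, the remaining subunit, stood at 0.24 and was not called (edgeR adjusted p = 0.193).

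Among the kinases and inhibitors of the checkpoint, BubR1, a subunit of the inhibitor of the APC/C, gave 34.0, 36.2 and 34.8 CPM in cdk8K185, against 25.7, 24.0 and 22.7 CPM in w1118. No library overlapped, at 0.54 (SE 0.09, edgeR adjusted p = 0.0038). Bub1, the related kinase at the kinetochore, gave 29.7, 25.9 and 28.4 CPM in cdk8K185, against 29.8, 29.7 and 23.9 CPM in w1118, and the genotypes were mixed (0.01, SE 0.12, edgeR adjusted p = 0.941). The log2 fold changes of Bub3, which binds both, of the inhibitor mad2 and of the kinase Mps1 were 0.25, 0.30 and 0.36 and none of the 3 was called with TMM scaling, Bub3 and Mps1 without overlap between genotypes. With library totals alone Bub3 (0.47), Mps1 (0.58) and Zwilch (0.46) were called, in a scaling that moved all genes upwards.

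**Figure D2:**
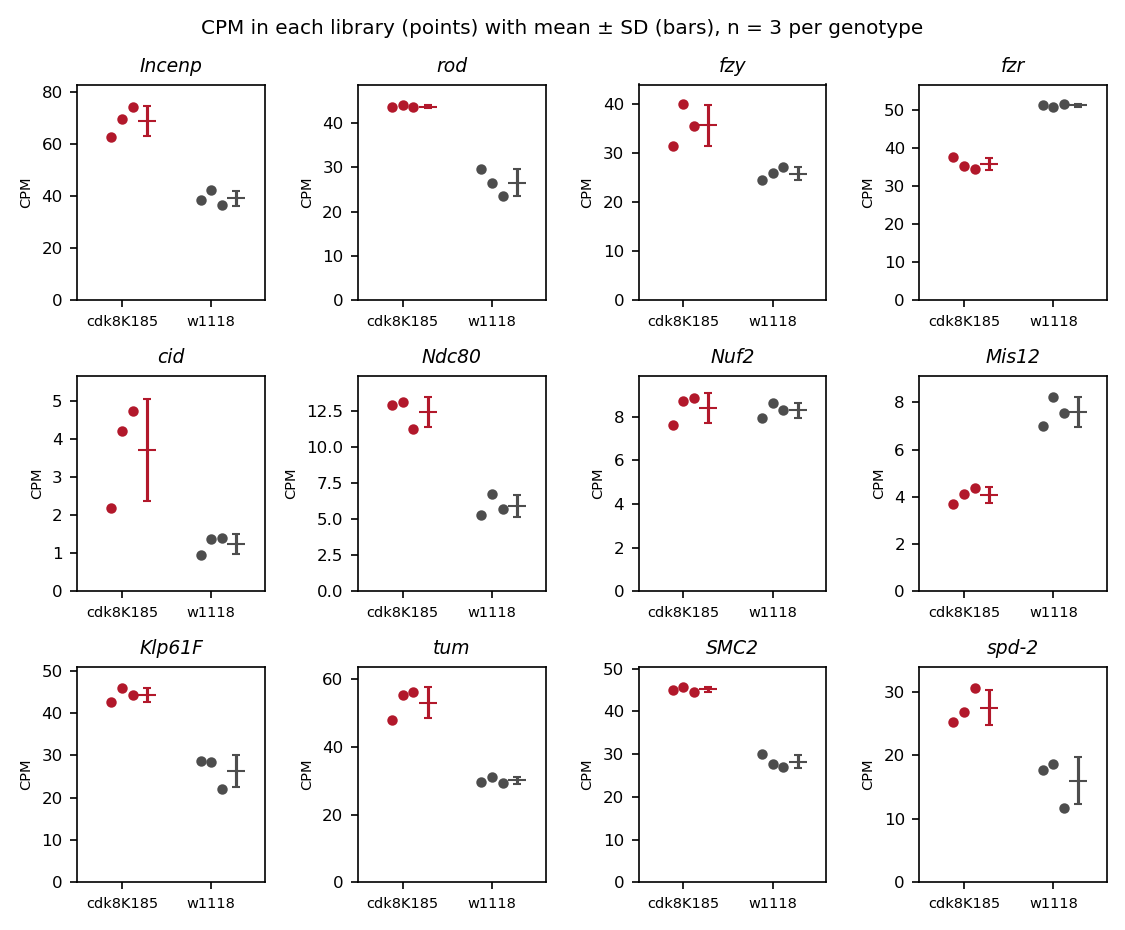
CPM of 12 of the genes in each library (points) with mean and SD (bars), 3 cdk8K185 libraries in red and 3 w1118 libraries in grey, on axes that start at 0. The genotypes do not overlap in any panel but that of Nuf2, whose means were 8.39 CPM in cdk8K185 and 8.29 CPM in w1118; fzr and Mis12 are lower in cdk8K185 and the others higher.

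The activators of the APC/C, a ubiquitin ligase that triggers anaphase and mitotic exit, differed in direction. The Cdc20 homologue fzy (FBgn0001086, 2L:16310956-16313097, plus strand), which acts at anaphase onset, gave 31.3, 39.8 and 35.4 CPM in cdk8K185, against 24.4, 25.9 and 27.0 CPM in w1118. All cdk8K185 values were higher, at 0.46 (SE 0.11, edgeR adjusted p = 0.0171). The Cdh1 homologue fzr (FBgn0262699, X:4667290-4679537, minus strand), which acts at mitotic exit and in the switch to endocycles, gave 37.8, 35.4 and 34.5 CPM in cdk8K185, against 51.5, 50.9 and 51.6 CPM in w1118. All cdk8K185 values were lower, at -0.52 (SE 0.08, edgeR adjusted p = 0.00285), and the w1118 values were the least variable of the 49 genes in that genotype, with a coefficient of variation of 0.7%. The call of fzr was kept in each of the 15 alternatives run, and that of fzy in those at the 0.05 threshold other than the fit with the lncRNA:roX1 level as a further term (edgeR adjusted p = 0.0525).

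Both activators could be compared within a library, where scaling plays no part. The log2 ratio of fzy to fzr was -0.27, 0.17 and 0.04 in cdk8K185, against -1.08, -0.97 and -0.93 in w1118. The mean ratio was 0.97 higher on the log2 scale in cdk8K185. Since each gene was already without overlap, in opposite directions, that the ratios do not overlap follows from those values. An exact permutation test of the ratio gave p = 0.1, the smallest that 3 against 3 libraries allow, and adds nothing to them. Leaving out any single library gave differences of 0.88 to 1.10. This ratio and the 2 given below were chosen after the values had been seen and are descriptions.

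Separase (thr), the protease that opens cohesin rings, and its inhibitor securin (pim), a substrate of the APC/C, were not called. Transcripts of pim gave 9.80, 13.4 and 9.71 CPM in cdk8K185, against 9.07, 9.23 and 7.21 CPM in w1118, without overlap but with an edgeR adjusted p of 0.15 (0.36, SE 0.18). Those of thr gave 10.7, 14.0 and 13.8 CPM in cdk8K185, against 11.7, 11.5 and 8.51 CPM in w1118, and cdk8K185 replicate 1 fell among the w1118 values (0.28, edgeR adjusted p = 0.242).

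Genes of the centromere and kinetochore had the widest range among the 9 roles, from -0.90 to 1.57, with 2 called higher, 1 lower and 5 not called of 8. Ndc80 (FBgn0030500, X:13609671-13612062, minus strand), which encodes a microtubule-binding subunit of the outer kinetochore, gave 12.9, 13.1 and 11.3 CPM in cdk8K185, against 5.29, 6.75 and 5.71 CPM in w1118. Every cdk8K185 value was above every w1118 value, a fold of 2.1 (log2 1.07, SE 0.15, edgeR adjusted p = 0.00175). Nuf2 (FBgn0031886, 2L:7064431-7065837, minus strand), the partner of Ndc80 in the same coiled-coil dimer, gave 7.60, 8.71 and 8.85 CPM in cdk8K185, against 7.94, 8.63 and 8.29 CPM in w1118. Those values were interleaved (0.02, SE 0.13, edgeR adjusted p = 0.931). Spc25, of the same 4-subunit complex, was not called either (0.14, edgeR adjusted p = 0.587).

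Within libraries the log2 ratio of Ndc80 to Nuf2 was 0.77, 0.59 and 0.35 in cdk8K185, against -0.59, -0.35 and -0.54 in w1118. Every cdk8K185 ratio lay above every w1118 ratio, while their sign depends on exon length, for which CPM are not scaled. Per kb of exon Ndc80 was below Nuf2 in both genotypes. The means were 5.65 and 6.50 CPM per kb in cdk8K185, against 2.69 and 6.425 CPM per kb in w1118. The difference in means was 1.06 on the log2 scale, and it was 0.96 to 1.17 when single libraries were left out. Over 37 bp of its exons, 2.9% of their length, Nuf2 is overlapped on the other strand by Sem1, which fell (94.5 CPM in cdk8K185 and 140 CPM in w1118, log2 -0.57, edgeR adjusted p = 0.0205). Reads in those 37 bp could have been lost or shared, and their part in the Nuf2 value was not tested. No annotated exon overlaps Ndc80. The third ratio, gwl to endos, was -2.96, -2.86 and -3.15 in cdk8K185, against -3.03, -3.04 and -3.37 in w1118, and overlapped between genotypes (difference 0.16 on the log2 scale).

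**Figure D3:**
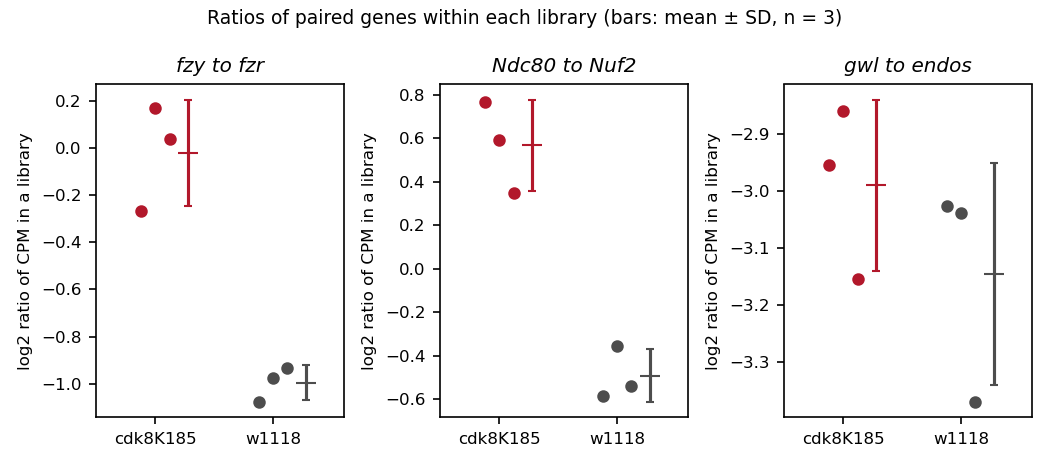
Log2 ratio of the CPM of paired genes within each library (points), with mean and SD (bars), for 3 libraries of cdk8K185 (red) and 3 of w1118 (grey); each panel has its own vertical range. The ratio of fzy to fzr averages -0.02 in cdk8K185 and -0.99 in w1118, that of Ndc80 to Nuf2 averages 0.57 in cdk8K185 and -0.49 in w1118, and that of gwl to endos overlaps.

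Mis12 (FBgn0035725, 3L:6968035-6969048, minus strand), a subunit of the complex that joins the inner to the outer kinetochore, had the largest lower change of the 49. It gave 3.72, 4.11 and 4.38 CPM in cdk8K185, against 6.995, 8.24 and 7.54 CPM in w1118. The genotypes did not overlap, at -0.90 (SE 0.17, edgeR adjusted p = 0.00596), and the call was kept in each of the 15 alternatives. Nnf1b and Nnf1a, which belong to the same complex and stood outside the 49 genes, differed from it: Nnf1b was called higher, with 5.004 ± 0.764 CPM in cdk8K185 and 2.01 ± 0.0354 CPM in w1118 (SD, n = 3 each), and Nnf1a was not called (0.17). Kmn1, another subunit described at the fly kinetochore, was at 0.43 and not called (edgeR adjusted p = 0.151).

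At the centromere, cid (FBgn0040477, 2R:13485617-13486631, plus strand), the histone H3 variant that marks it, had the largest log2 fold change of the 49 and the lowest mean CPM. It gave 2.20, 4.21 and 4.73 CPM in cdk8K185, against 0.945, 1.39 and 1.40 CPM in w1118, on as few as 26 counts in a cdk8K185 library and 10 in a w1118 library. No library overlapped, at 1.57 (SE 0.40, edgeR adjusted p = 0.0196), but the cdk8K185 libraries varied by 36.0% and the call was lost without cdk8K185 replicate 2 or 3 or w1118 replicate 1 (log2 1.38 to 1.47, edgeR adjusted p 0.0578 to 0.0644). The loader of cid, cal1, was at 0.19 and not called (edgeR adjusted p = 0.179). Over 11.3% of its exon length cal1 is overlapped by cher on the other strand, which fell (639 CPM in cdk8K185 and 1450 CPM in w1118). Cenp-C (0.42), which links cid to the kinetochore, and Spc105R (0.43), the platform for Bub proteins, were not called either, with edgeR adjusted p of 0.0866 and 0.0606. Without w1118 replicate 1 both were called, at 0.59 and 0.60 with edgeR adjusted p of 0.0274 and 0.0126.

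Among spindle motors, 3 of 4 were called higher, with a median of 0.69. The bipolar kinesin Klp61F (FBgn0004378), which pushes spindle poles apart, gave 42.6, 46.0 and 44.4 CPM in cdk8K185, against 28.7, 28.4 and 22.1 CPM in w1118 (log2 0.75, SE 0.12, edgeR adjusted p = 0.00316). The minus-end motor ncd (FBgn0002924), which bundles spindle microtubules, gave 41.3, 47.7 and 52.3 CPM in cdk8K185, against 25.5, 30.4 and 25.4 CPM in w1118 (log2 0.80, SE 0.12, edgeR adjusted p = 0.00279). Neither gene overlapped between genotypes, and the exons of each overlap those of a gene on the other strand, galene over 424 bp of Klp61F and ca over 317 bp of ncd, neither of which was called. Klp67A (FBgn0004379, 3L:9362636-9367046, minus strand), which limits spindle length, gave 27.5, 28.4 and 26.1 CPM in cdk8K185, against 18.1, 18.9 and 16.1 CPM in w1118 (log2 0.63, SE 0.10, edgeR adjusted p = 0.00343). Over 99 bp it is overlapped on the other strand by CG34456, which was called higher (2.52 CPM in cdk8K185 and 0.608 CPM in w1118, log2 2.04, edgeR adjusted p = 0.0152), and the part of those reads in the Klp67A value was not tested. Klp67A lies 0.47 Mb from Cdk8 on 3L. Of the 49 genes 12 lie on that arm, and 9 of these were called. Among all 49, 25 were called higher and 3 lower, and of all genes tested 36.9% were called. The share called among all genes on 3L was not counted. The 9 include pbl (1.93 Mb away), sti (2.67 Mb), Mis12 (2.87 Mb) and endos (4.19 Mb). For the 12 genes on 3L a difference in the chromosome carried with the allele also cannot be told apart from the mutation of Cdk8. The same holds for genes on 3R, the other arm of that chromosome, among them rod, ncd, Cap-D2 and asl. The microtubule depolymerase Klp10A, the most abundant of the 4 per kb of exon (22.5 CPM per kb in cdk8K185 and 21.8 CPM per kb in w1118), was not called. It gave 113, 109 and 126 CPM in cdk8K185, against 127, 110 and 99.8 CPM in w1118, with the genotypes mixed (0.04, edgeR adjusted p = 0.788).

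Central spindle and cytokinesis genes, which build the midzone after anaphase and close the cleavage furrow, were called higher in 5 of 6 cases, with a median of 0.68. Both subunits of centralspindlin were among them. Its GTPase-activating subunit tum (FBgn0086356, 2R:13856150-13858689, minus strand) gave 47.8, 55.2 and 56.1 CPM in cdk8K185, against 29.8, 31.3 and 29.3 CPM in w1118, and had the smallest adjusted p of the 49 genes (log2 0.82, SE 0.10, edgeR adjusted p = 0.000912). Its kinesin pav (FBgn0011692) gave 46.9, 52.0 and 59.0 CPM in cdk8K185, against 32.1, 34.6 and 30.1 CPM in w1118 (log2 0.70, SE 0.11, edgeR adjusted p = 0.00323). In both the lowest cdk8K185 value was replicate 1 and still lay above all of w1118. The citron kinase sti (FBgn0002466, 3L:12507998-12514815, minus strand), which acts at the midbody, gave 75.6, 82.4 and 70.9 CPM in cdk8K185, against 49.1, 39.5 and 38.4 CPM in w1118 (log2 0.85, SE 0.12, edgeR adjusted p = 0.00205). The microtubule bundler feo, of the PRC1 family, was also called higher (0.65, edgeR adjusted p = 0.00886).

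The remaining cytokinesis genes act on the contractile ring and were nearer the threshold. The activator of Rho1, pbl (3L:7896109-7911954, minus strand), gave 50.1, 54.8 and 64.2 CPM in cdk8K185, against 45.9, 44.4 and 42.8 CPM in w1118. It did not overlap (log2 0.35, SE 0.11, edgeR adjusted p = 0.0455), but its call was lost when any library other than cdk8K185 replicate 1 was left out (edgeR adjusted p 0.0693 to 0.109), with RLE size factors (edgeR adjusted p = 0.0623), in DESeq2 (adjusted p = 0.0854) and in limma-voom (adjusted p = 0.0523). Anillin (scra) gave 68.0, 73.2 and 80.3 CPM in cdk8K185, against 65.3, 61.1 and 49.8 CPM in w1118, without overlap and without a call (log2 0.33, SE 0.12, edgeR adjusted p = 0.0755).

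All 5 genes of condensin, the ring complex that compacts mitotic chromosomes, were called higher, with a median of 0.68. Its 2 ATPase subunits are SMC2 and glu, the fly SMC4. SMC2 (FBgn0027783, 2R:14848621-14852653, minus strand) gave 45.0, 45.8 and 44.6 CPM in cdk8K185, against 30.1, 27.7 and 27.0 CPM in w1118 (log2 0.68, SE 0.08, edgeR adjusted p = 0.00109). For glu (FBgn0015391) the values were 44.0, 51.0 and 52.8 CPM in cdk8K185, against 33.3, 28.5 and 22.5 CPM in w1118 (log2 0.81, SE 0.15, edgeR adjusted p = 0.00634). Neither overlapped, and w1118 replicate 3 was the lowest library for both. Of the non-SMC subunits, Cap-D2 gave 41.6, 41.1 and 42.2 CPM in cdk8K185, against 28.3, 26.0 and 23.1 CPM in w1118 (log2 0.69, SE 0.10, edgeR adjusted p = 0.00202). Cap-G gave 51.9, 55.2 and 52.1 CPM in cdk8K185, against 44.0, 42.9 and 35.3 CPM in w1118 (log2 0.38, SE 0.11, edgeR adjusted p = 0.0288), a call lost in DESeq2 (adjusted p = 0.0506) and without cdk8K185 replicate 1, cdk8K185 replicate 2 or w1118 replicate 2 (edgeR adjusted p 0.0503 to 0.07). The kleisin barr was at 0.49 (edgeR adjusted p = 0.00643). The subunits of the second condensin, Cap-H2 and Cap-D3, stood outside the 49 genes, and neither was called (0.41 and 0.18, edgeR adjusted p of 0.0698 and 0.338).

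Spindle pole and centrosome genes gave 2 higher calls among 7, with a median of 0.22, the second lowest of the 9 roles. The scaffold protein spd-2 (FBgn0027500, 3L:16591207-16595014, minus strand), which recruits pericentriolar material, gave 25.2, 26.8 and 30.5 CPM in cdk8K185, against 17.7, 18.6 and 11.7 CPM in w1118. It did not overlap (log2 0.78, SE 0.18, edgeR adjusted p = 0.0142), and its coefficient of variation, 23.2%, was the largest of the 49 genes in w1118, where replicate 3 was low. The centriolar scaffold asl gave 26.7, 30.1 and 28.4 CPM in cdk8K185, against 20.4, 24.5 and 20.2 CPM in w1118 (log2 0.39, SE 0.11, edgeR adjusted p = 0.0322). That call was lost in DESeq2 (adjusted p = 0.0815) and without cdk8K185 replicate 2 or 3 or w1118 replicate 1 or 3 (edgeR adjusted p 0.0535 to 0.0836). Sas-6, the protein of the centriole cartwheel, gave 5.83, 8.03 and 8.08 CPM in cdk8K185, against 4.82, 6.05 and 4.63 CPM in w1118, and cdk8K185 replicate 1 lay below w1118 replicate 2 (log2 0.50, SE 0.20, edgeR adjusted p = 0.0929).

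The other spindle pole genes lay nearer 0. The kinase of centriole duplication, SAK, was at 0.21 and the pole-focusing protein asp at 0.22, and neither was called. The pericentriolar scaffold cnn, which is built up together with spd-2, was at -0.08 and not called, with means of 46.0 ± 1.54 CPM in cdk8K185 and 48.7 ± 7.66 CPM in w1118 (SD, n = 3 each). The NuMA homologue mud, which orients the spindle, gave 49.2, 57.3 and 48.6 CPM in cdk8K185, against 57.4, 55.2 and 36.9 CPM in w1118 (0.05, edgeR adjusted p = 0.837). Nearly all of the exon length of mud, 98.6%, is shared with an antisense RNA, so reads of the 2 cannot be told apart where counting did not use strand, which the sources used here do not give. In all, exons of 19 of the 49 genes overlap those of another gene, 18 of them on the other strand. Of the 19, 9 were called, beside 25 called higher and 3 called lower among all 49, and 36.9% of all genes tested.

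**Figure D4:**
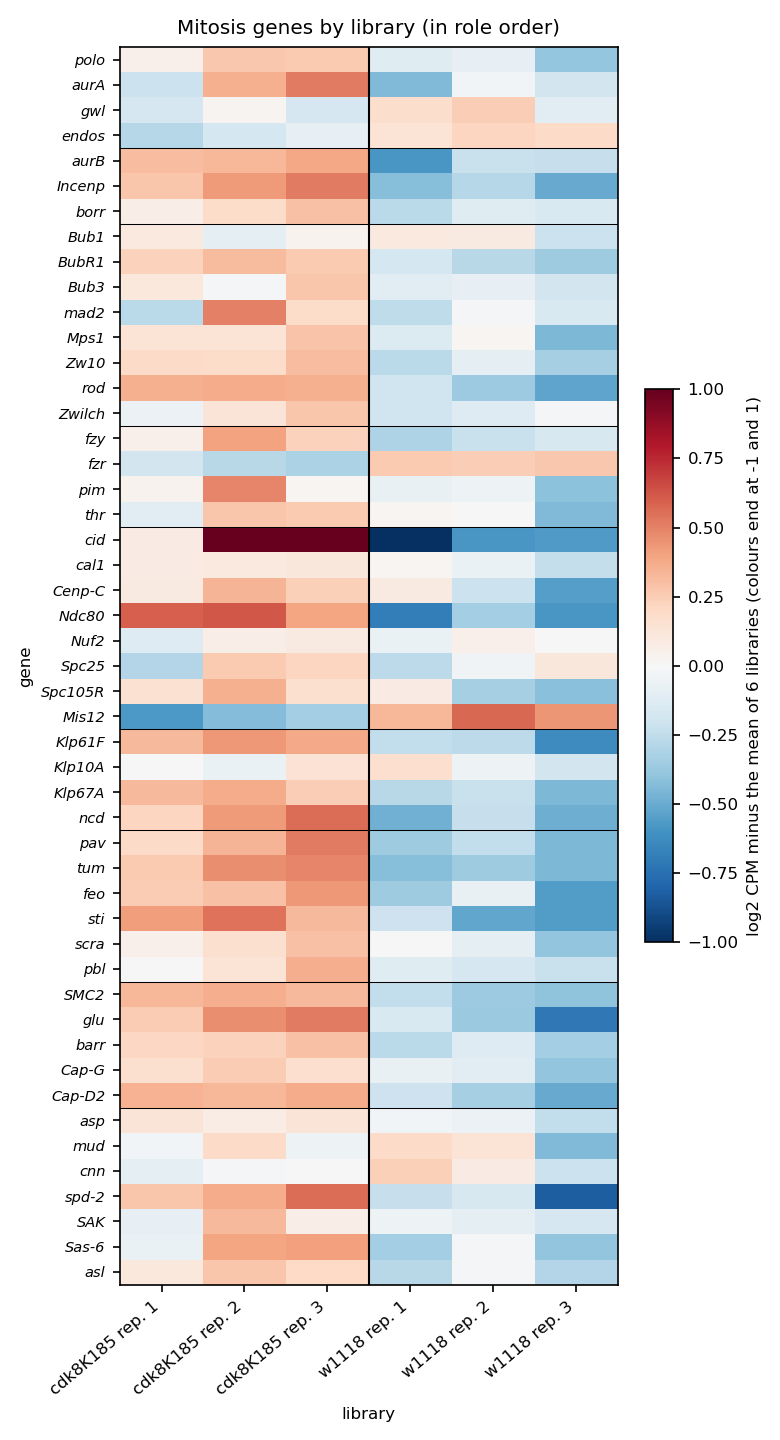
Log2 CPM of each of the 49 genes (rows, in role order) in each library (columns) minus the mean of that gene over the 6 libraries; red is above the mean and blue below, and the colour scale ends at -1 and 1. Most rows are red in cdk8K185 and blue in w1118, with endos, fzr and Mis12 the other way, and the columns of cdk8K185 replicate 1 and w1118 replicate 3 are the lowest of their genotype in 36 of 49 rows each.

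Libraries of a genotype differed in the level of the whole group. Of the cdk8K185 libraries, replicate 1 was the lowest for 36 of the 49 genes, and of the w1118 libraries, replicate 3 was the lowest, also for 36. The summed level of the 49 genes was 1713, 1852 and 1892 CPM in cdk8K185, against 1490, 1479 and 1299 CPM in w1118, so that the genotypes did not overlap. Without cdk8K185 replicate 1, 25 genes were called higher and 2 lower. Without w1118 replicate 3 the counts were 22 and 3, and over all 6 fits that left out a library they ran from 19 to 25 higher and from 2 to 3 lower, with endos the call that was lost among the lower ones. In all alternatives at the 0.05 threshold 20 of the 49 were called, 18 higher and 2 lower. The coefficient of variation had a median of 8.2% in cdk8K185 and 11.1% in w1118.

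Per kb of exon, endos was the most abundant of the 49 genes in both genotypes, with 55.9 CPM per kb in cdk8K185 and 71.7 CPM per kb in w1118. Bub3 was next, with 40.3 CPM per kb in cdk8K185 and 33.8 CPM per kb in w1118, followed by polo with 33.5 CPM per kb in cdk8K185 and 25.6 CPM per kb in w1118. The lowest in w1118 were cid, with 3.66 CPM per kb in cdk8K185 and 1.23 CPM per kb in w1118, and thr, with 2.81 CPM per kb in cdk8K185 and 2.31 CPM per kb in w1118.

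Another 80 genes of cell division were listed by role, and 76 of them were tested. Of these 26 were called higher (34.2%, beside 19.9% of all genes) and 2 lower (2.63%, beside 17.0%), with a median of 0.23. Without cdk8K185 replicate 1 the count of higher genes was 17, without cdk8K185 replicate 2 it was 16, and with the lncRNA:roX1 level as a further term it was 17. Of 16 further centrosome and gamma-tubulin genes 8 were higher and 8 not called, with a median of 0.45. They included Sas-4, a centriole assembly protein (19.0 ± 2.36 CPM in cdk8K185 and 10.7 ± 0.753 CPM in w1118, SD, n = 3 each, log2 0.82), the centriole cap protein Cp110 (0.75), and 4 subunits of gamma-tubulin complexes, Grip163 (0.76), Grip75 (0.56), Grip128 (0.50) and Grip84 (0.49). The maternal gamma-tubulin gammaTub37C, also called higher, had the largest log2 fold change of the 76, on few counts: it gave 2.79, 1.86 and 1.20 CPM in cdk8K185, against 0.0945, 0.496 and 0.215 CPM in w1118 (edgeR adjusted p = 0.0125). Of 20 further spindle and microtubule genes 8 were higher, among them Mink (25.9 ± 1.52 CPM in cdk8K185 and 13.6 ± 1.14 CPM in w1118, SD, n = 3 each, log2 0.93), the microtubule protein mars (0.57) and the kinesin sub (0.62).

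Cohesin and chromosome structure genes, 13 in number, were called higher in 4 cases and lower in 1. The lower gene was vtd, the Rad21 subunit of cohesin that separase cleaves, with 49.8 ± 5.07 CPM in cdk8K185 and 86.1 ± 6.84 CPM in w1118 (SD, n = 3 each, log2 -0.79, edgeR adjusted p = 0.0017). Its ring partners were SMC3, called higher (0.38), and SMC1, not called (0.25, edgeR adjusted p = 0.113). Also higher were the acetyltransferase eco (0.65), the cohesion protector dmt (0.58) and topoisomerase II, Top2 (0.40). Subunits of the APC/C with its E2 enzymes gave 3 higher calls and 1 lower among 11 genes and a median of 0.07. The higher genes were APC7, with 2.41 ± 0.694 CPM in cdk8K185 and 0.671 ± 0.211 CPM in w1118 (SD, n = 3 each, log2 1.83, edgeR adjusted p = 0.0129), shtd (0.38) and ida (0.38). The change of APC7 rests on few counts, at 0.473, 0.893 and 0.646 CPM in w1118. The lower gene was the E2 enzyme vih, with 30.4 ± 2.12 CPM in cdk8K185 and 41.7 ± 2.11 CPM in w1118 (SD, n = 3 each, log2 -0.46, edgeR adjusted p = 0.0083). None of the 7 further cytokinesis genes, which include Rho1, the myosin light chain sqh and the septins, was called in edgeR, where 2 had an unadjusted p under 0.05, or in limma-voom. In DESeq2 2 of them were called. Their median was -0.03.

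DNA replication genes, set beside the mitotic ones on a list of 20, were called higher in 20 of 20 cases, with a median of 1.14 and a range from 0.66 for Orc5 to 1.45 for RnrL. Of the 49 mitotic genes 14 had a log2 fold change at or above that of Orc5, and 1, cid, lay above the median of the replication list. The difference between the lists was not tested.

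**Figure D5:**
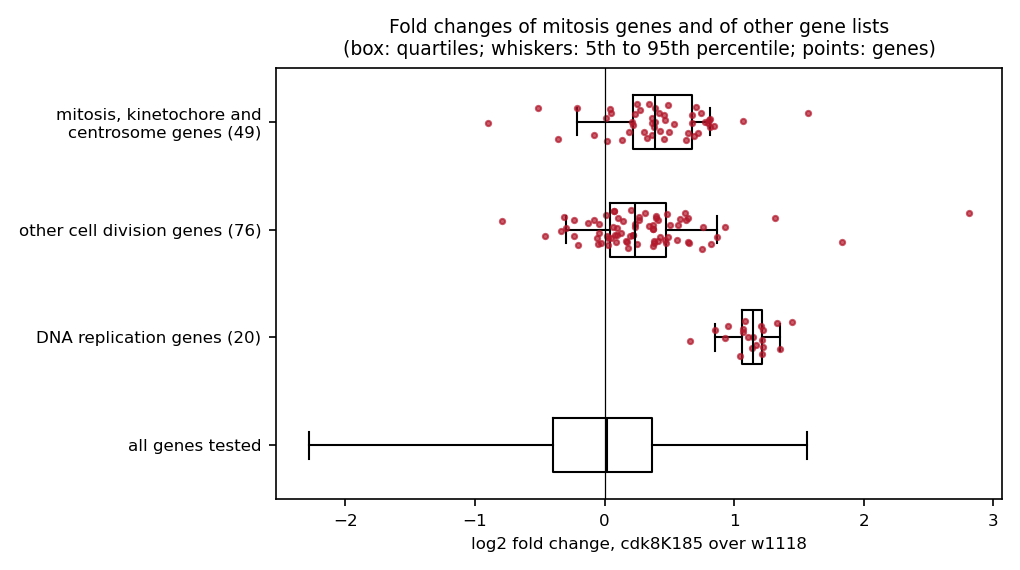
Log2 fold changes, cdk8K185 over w1118, of the 49 mitosis genes, of the other 76 cell division genes tested, of 20 DNA replication genes and of all 10632 genes tested (boxes: quartiles with the median; whiskers: the central 90% of genes; points: single genes). The medians are 0.39, 0.23, 1.14 and 0.02 in that order.

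Whole larvae hold several tissues, and markers of some of them differed between the genotypes. Of 16 imaginal disc genes, nub and rn were higher, eyg was lower and 13 were not called, and their summed level was 381 to 437 CPM in cdk8K185 and 361 to 424 CPM in w1118. Of 11 genes of neuroblasts and the nervous system mira, pros and Syt1 were lower and 8 were not called, with sums of 310 to 320 CPM in cdk8K185 and 469 to 544 CPM in w1118. Syt1 alone averaged 124 CPM in cdk8K185 and 262 CPM in w1118. The neuroblast factors ase, dpn and wor were not called (log2 -0.49, -0.30 and -0.47, edgeR adjusted p of 0.258, 0.516 and 0.219). Their levels were low, with means of 3.18, 1.47 and 3.48 CPM in w1118. Also not called were insc (-0.06), elav (0.0001), nSyb (-0.03), brp (-0.32) and repo (-0.07). Of 8 haemocyte genes NimC1 was higher, lz and PPO1 were lower and 5 were not called, with sums of 599 to 994 CPM in cdk8K185 and 1130 to 1511 CPM in w1118. PPO1 averaged 97.3 CPM in cdk8K185 and 339 CPM in w1118, and PPO2, not called, 192 CPM and 430 CPM. The others not called were Hml (log2 -0.12), He (0.14), srp (-0.12) and Pxn (-0.44). Of 7 testis genes tested mia was higher and aly and sa lower. Sums over the 12 listed testis genes in the count table, tested or not, were 26.5 to 37.1 CPM in cdk8K185 and 22.4 to 64.4 CPM in w1118. In cdk8K185 aly and sa gave at most 0.0979 CPM, under the 3 counts taken as the floor of detection (0.253 to 0.298 CPM). No marker was at 0 in every library.

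Salivary gland genes, of an endocycling tissue, were lower in 8 of 9 cases, with sums of 1814 to 2774 CPM in cdk8K185 and 28920 to 35360 CPM in w1118. Sgs genes made up most of these sums, Sgs3 alone giving 698 CPM in cdk8K185 and 13167 CPM in w1118. The others were sage (log2 -2.28), fkh (-0.55) and CrebA (0.03, not called). Whether the larvae differed in stage was not tested. Of 6 fat body genes Fbp1 and Lsp1gamma were lower, with sums of 19980 to 42670 CPM in cdk8K185 and 67860 to 73800 CPM in w1118. None of the 5 muscle genes was called in edgeR, DESeq2 or limma-voom, and 0 had an unadjusted p under 0.05 in edgeR. The male-specific lncRNA:roX1, a readout of the mix of sexes in a pool, gave 755, 945 and 252 CPM in cdk8K185, against 202, 427 and 451 CPM in w1118, and was not called (edgeR adjusted p = 0.235). Of the 4 tested genes listed as markers of sex 1 was called, the female yolk protein gene Yp3. It gave 0.422, 0.392 and 0.430 CPM in cdk8K185, against 8.41, 6.35 and 6.57 CPM in w1118 (log2 -4.06, edgeR adjusted p = 0.0001). With the lncRNA:roX1 level as a further term, 21 of the 49 mitotic genes were called higher and 2 lower. Polo, endos, borr, fzy, Cap-G and asl lost their calls in that fit (edgeR adjusted p 0.0525 to 0.0852), and scra gained one (edgeR adjusted p = 0.046). The part of the other markers in the differences of the mitotic genes was not tested.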

How the data were processed

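Per the labels, RNA from pools of 10 larvae was made into Illumina libraries. The authors deposited 1 table of raw gene counts for the 6 libraries, not normalized. The submitters' processing notes name STAR, featureCounts, DESeq2 and dm6, while versions, annotation release and strand use are not given in the sources used here. Of 17562 identifiers 17477 matched a symbol. Positions are 1-based, from the BDGP6.54 annotation (Ensembl release 115), whose coordinates are those of dm6.

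Counts were tested in edgeR 4.0.16 (R 4.3.3) with filterByExpr (minimum count 10, minimum total 15), TMM factors and the robust two-sided quasi-likelihood F test, genotype being the only term. The SE is the absolute log2 fold change over the square root of F. The test was tested on simulated counts, with 188 of 10475 genes changed 2-fold or 4-fold. It recovered 68.4% of the 2-fold and 96.8% of the 4-fold changes, and 4.3% of its calls were false. Smaller changes were not simulated, so a gene not called may still differ. A far smaller share of genes was changed than the 36.9% called in the real data, so these rates need not hold there. Alternatives used limma 3.58.1, DESeq2 1.42.0, other scalings and filters, a threshold of 0.01, a replicate block, the lncRNA:roX1 level as a further term, and leaving out each library. Leaving out libraries from the ratios was added after seeing the data. Nothing says whether pools came from separate cultures, so p-values measure the spread between these pools. Replicate pools differed by more than sampling noise (chi-square per degree of freedom 17.87 to 43.75). The floor of 3 counts covers counting error only.

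The genes and lists were chosen with earlier results of these data known. Within each role the text gives library values for the 3 genes with the largest absolute log2 fold change, the one nearest 0, all called lower, and those whose call a named alternative ended. Zwilch, Bub3, feo, barr and the like are given in brief. Nnf1b, Sem1 and other genes outside the 49, and the 3 ratios, were picked after their values were seen. Of the 80 other division genes, 77 were found and 76 tested. Sequences of the genes are not used here. Figures were drawn with matplotlib 3.10.9.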

Additional observations from a re-analysis of the deposited data

How the results depend on the processing

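The fewest counts behind a call among the 49 were those of cid, 10 to 55 a library. Among 735 values of single mitotic genes under 15 alternatives, 651 kept their direction and their side of the threshold, 51 lost a call, 16 gained one and 17 changed sign. The sign changes were all in genes not called: with library totals alone gwl (0.001) and cnn (0.13), with RLE size factors and in DESeq2 Bub1 (-0.027) and Nuf2 (-0.024), and with at least 10 counts in every library Bub1 (-0.019) and Nuf2 (-0.014). With single libraries left out, log2 fold changes ran from -0.068 to 0.073 for Bub1, -0.014 to 0.079 for Nuf2, -0.018 to 0.145 for Klp10A, -0.11 to 0.16 for mud and -0.18 to 0.026 for cnn. With library totals alone the median of the 49 was 0.61. At an adjusted p under 0.01 in edgeR the calls were 2111 among all genes, 16 higher and 2 lower among the 49, and 9 higher among the other division genes. With the lncRNA:roX1 level as a further term 17 other division genes were called higher. Leaving out single libraries gave 2746 to 3844 calls among all genes, 19 to 25 higher and 2 to 3 lower among the 49, a median of 0.35 to 0.46, and 16 to 21 higher among the other division genes, against 26 with all libraries. The cause was not tested.

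The replicate numbers are not shown to pair the libraries, as the deviations of same-numbered libraries correlated at -0.19, 0.51 and 0.56, and cdk8K185 replicate 1 correlated best with w1118 replicate 2 (0.26). With a replicate block, 3988 genes were called in edgeR, with 23 higher and 3 lower among the 49, polo and pbl not being called (edgeR adjusted p of 0.0535 and 0.0778).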
